A study of Mus musculus and Homo sapiens with 41 samples.

Results

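H2AK119ub, histone H2A carrying a single ubiquitin on a lysine of its C-terminal tail, was compared between TET2 KO K-562 cells treated with siRNA against MBD6 (siMBD6) and TET2 KO K-562 cells treated with siRNA against NSUN2 (siNSUN2). The comparison rests on 6 CUT&Tag libraries, 3 per siRNA, of the 41 libraries of the series, chosen by their labels alone. CUT&Tag uses an antibody to bring a transposase to a chromatin mark, so that the DNA beside the mark is tagged and sequenced. K-562 is an established human erythroleukaemia line, and the labels give bone marrow as its tissue and lymphoblast as its cell type. Both groups lack TET2 and both were nucleofected with siRNA, so neither is a wild-type or a control-siRNA condition. The TET2 KO line had been generated earlier and its number of clones is not given in the sources used here. The question was which genes and regions carried the mark after both knockdowns and which after either alone.

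H2AK119ub is deposited by RING1 and RNF2, the catalytic subunits of Polycomb repressive complex 1 (PRC1), and is known for holding CpG-rich promoters of developmental genes in a repressed state. BAP1, with ASXL proteins and MBD5 or MBD6, forms the PR-DUB deubiquitylase that removes the mark. NSUN2 places 5-methylcytosine (m5C) on RNA, and TET2 is an enzyme that oxidizes 5-methylcytosine. In the study, MBD6 is described as a reader of RNA m5C, which places NSUN2 and MBD6 on a common pathway upstream of this deubiquitylase.

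The data are lists of broad peaks, a list for each library, on the human genome build hg38. A peak is a stretch in which the reads of that library stand above their local background. A merged region is the union of overlapping peaks of the 6 libraries, and the covered length is the number of bases of a region or window that lie inside peaks. Sequences of 4 merged regions are shown because they show what the listed DNA looks like in each class. LNPK and EFCAB2 lie beside the regions with the most covered sequence among those listed in all 3 siMBD6 and in no siNSUN2 library, GDF15 beside the leading region of the opposite kind, and ERRFI1 beside a region listed in all 6 libraries. Regions were taken within 1 kb of a protein-coding transcription start site (TSS), outside multi-copy sequence, and the central 300 bases of each are printed 5′ to 3′ on the plus strand with every CpG in capitals.
LNPK (chr2:176002141-176002440): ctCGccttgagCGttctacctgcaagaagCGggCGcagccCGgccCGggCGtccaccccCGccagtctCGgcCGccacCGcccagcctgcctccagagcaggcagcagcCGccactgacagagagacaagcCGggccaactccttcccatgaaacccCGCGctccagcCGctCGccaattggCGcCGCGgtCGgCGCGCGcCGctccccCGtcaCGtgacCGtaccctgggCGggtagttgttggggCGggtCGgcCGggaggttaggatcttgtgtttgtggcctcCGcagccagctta
EFCAB2 (chr1:244970452-244970751): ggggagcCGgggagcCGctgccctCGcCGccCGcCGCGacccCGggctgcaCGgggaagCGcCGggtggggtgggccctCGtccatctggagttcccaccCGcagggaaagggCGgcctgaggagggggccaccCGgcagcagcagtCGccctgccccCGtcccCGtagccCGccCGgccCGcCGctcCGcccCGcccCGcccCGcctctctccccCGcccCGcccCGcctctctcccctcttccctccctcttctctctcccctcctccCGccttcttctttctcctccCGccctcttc
GDF15 (chr19:18374139-18374438): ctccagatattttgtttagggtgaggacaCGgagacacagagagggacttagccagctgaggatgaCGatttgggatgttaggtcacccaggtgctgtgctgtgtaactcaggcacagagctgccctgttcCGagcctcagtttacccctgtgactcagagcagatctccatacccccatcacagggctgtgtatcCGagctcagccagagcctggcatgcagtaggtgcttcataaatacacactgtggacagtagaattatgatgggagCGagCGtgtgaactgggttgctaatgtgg
ERRFI1 (chr1:8026642-8026941): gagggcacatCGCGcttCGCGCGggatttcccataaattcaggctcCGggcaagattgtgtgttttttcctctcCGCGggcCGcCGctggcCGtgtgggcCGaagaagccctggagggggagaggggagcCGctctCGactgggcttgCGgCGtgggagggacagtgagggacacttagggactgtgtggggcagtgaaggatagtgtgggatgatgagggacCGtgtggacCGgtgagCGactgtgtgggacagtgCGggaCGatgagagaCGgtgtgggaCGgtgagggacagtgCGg

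The LNPK stretch holds 33 CpGs and the EFCAB2 stretch 31 CpGs, or 11 and 10.3 CpGs per 100 bases. Of all 300-base windows centred on the 20033 protein-coding TSSs, 25.0% are at least as dense as the LNPK stretch and 29.3% at least as dense as the EFCAB2 stretch. The ERRFI1 stretch holds 24 CpGs, a density that 44.9% of TSS windows reach. The GDF15 stretch is CpG-poor, with 6 CpGs in 300 bases, and 79.2% of TSS windows are at least as dense. ERRFI1, which encodes a feedback inhibitor of EGF receptor signalling, was covered over 0.99, 1.08 and 0.31 kb of its region in siMBD6 libraries and over 1.04, 1.13 and 1.02 kb in siNSUN2 libraries. The groups overlapped there, and siMBD6 replicate 3 was the lowest of the 6 libraries.

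The siNSUN2 libraries held more peaks and more covered sequence on average, but the ranges overlapped. Peaks on the autosomes, X and Y numbered 3413, 3767 and 3035 in siMBD6 libraries and 4575, 4453 and 3562 in siNSUN2 libraries. They covered 1.30, 1.41 and 0.988 Mb in siMBD6 libraries and 1.74, 1.66 and 1.15 Mb in siNSUN2 libraries. Replicate 3 was the shortest list of each group. The mean was 1.23 ± 0.221 Mb in siMBD6 and 1.52 ± 0.323 Mb in siNSUN2 libraries (SD, n = 3 each), a log2 ratio of -0.30 (exact two-sided permutation test, p = 0.3, where 0.1 is the smallest p that 3 against 3 libraries allow). The control-siRNA H2AK119ub libraries of the same experiment, 3 of TET2 KO and 3 of WT cells, covered between 0.775 and 1.10 Mb. With the same number of peaks taken from every list (the 3035 with the highest −log10 p), the log2 ratio of siMBD6 over siNSUN2 covered length was 0.0049 (exact permutation p = 0.9). By construction this setting leaves only the widths of the peaks to differ, so it cannot show a difference in their number.

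Replicate 3 had narrower peaks in both groups, with median widths of 290 bases in siMBD6 and 289 bases in siNSUN2, against 337 to 345 bases in the other 4 libraries. Peaks on the Drosophila chromatin that had been added in equal amount as a spike-in numbered 100, 100 and 93 in siMBD6 libraries, 65, 75 and 68 in siNSUN2 libraries, and between 123 and 147 in the control-siRNA libraries. The groups did not overlap in spike-in peaks (exact permutation p = 0.1), and the group means of 97.7 in siMBD6 and 69.3 in siNSUN2 libraries ran in the opposite order to the covered length. The part of the spike-in, of sequencing depth and of library yield in the result was not tested. The peak lists carry neither reads nor depth, so a stretch at 0 kb is one with no listed peak, and fewer marked cells cannot be told apart from a weaker mark in every cell.

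**Figure D1:**
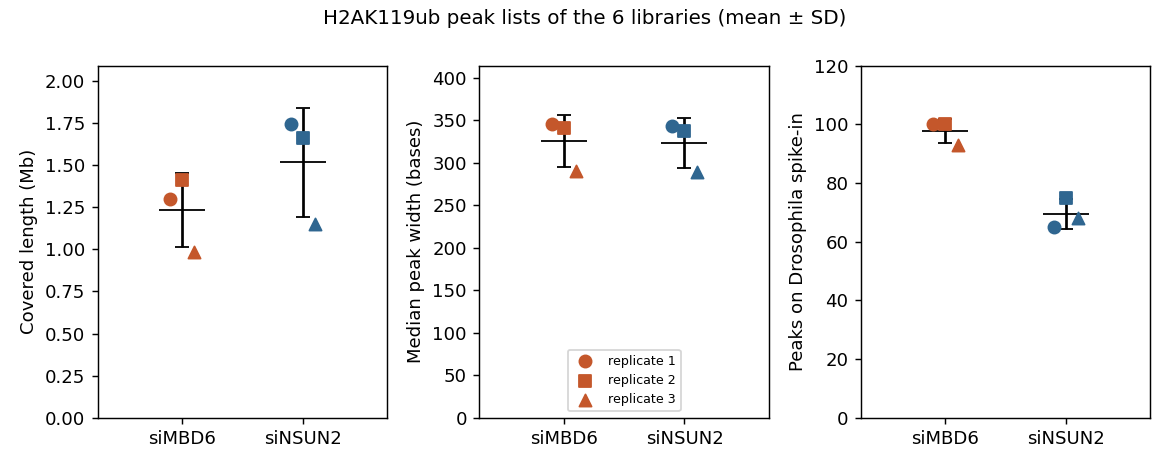
Covered length in Mb, median peak width in bases and number of spike-in peaks for each library, siMBD6 at left and siNSUN2 at right in each panel, with the mean and SD as bars (n = 3 each) and the marker shape giving the replicate. Covered length overlaps between groups, replicate 3 has the narrowest peaks in both, and the 3 siMBD6 libraries sit at 93 to 100 spike-in peaks, above the 65 to 75 of siNSUN2.

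Covered sequence of both groups was GC-rich and held a larger share of promoter sequence than the genome does, although most of it lay outside promoters. Sequence within 1 kb of a protein-coding TSS made up 35.9, 36.5 and 39.2% of covered bases in siMBD6 libraries and 34.5, 35.8 and 37.2% in siNSUN2 libraries, whereas such sequence is 1.19% of the genome. The mean share was 37.2 ± 1.76% in siMBD6 and 35.8 ± 1.35% in siNSUN2 libraries (SD, n = 3 each), a difference of 1.39 percentage points (exact permutation p = 0.4, adjusted p = 0.84 over a family of 6 measures). Gene bodies outside promoters took 31.8% in siMBD6 and 32.8% in siNSUN2 libraries, and the share of intergenic sequence differed by -0.463 percentage points. GC content averaged 62.9% in siMBD6 and 63.0% in siNSUN2 libraries, against 40.9% of the genome. CpG density was 5.88 per 100 bases in siMBD6 and 5.77 in siNSUN2 libraries, against 1.00 in the genome. None of these 6 measures passed the test, which at 3 against 3 could not have reached 0.05.

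At the TSS itself the same sharp profile appeared in all 6 libraries. In every library the share of protein-coding TSSs covered was highest at 100 bases upstream, where it was 5.22, 5.88 and 5.14% in siMBD6 libraries and 6.69, 6.70 and 5.69% in siNSUN2 libraries. At 5 kb upstream it was 0.0948, 0.0549 and 0.0549% in siMBD6 libraries and 0.110, 0.120 and 0.0899% in siNSUN2 libraries. At 1 kb downstream it was 0.304, 0.349 and 0.235% in siMBD6 libraries and 0.464, 0.459 and 0.285% in siNSUN2 libraries. Near start sites the listed peaks thus formed a narrow band, while most covered sequence lay elsewhere.

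**Figure D2:**
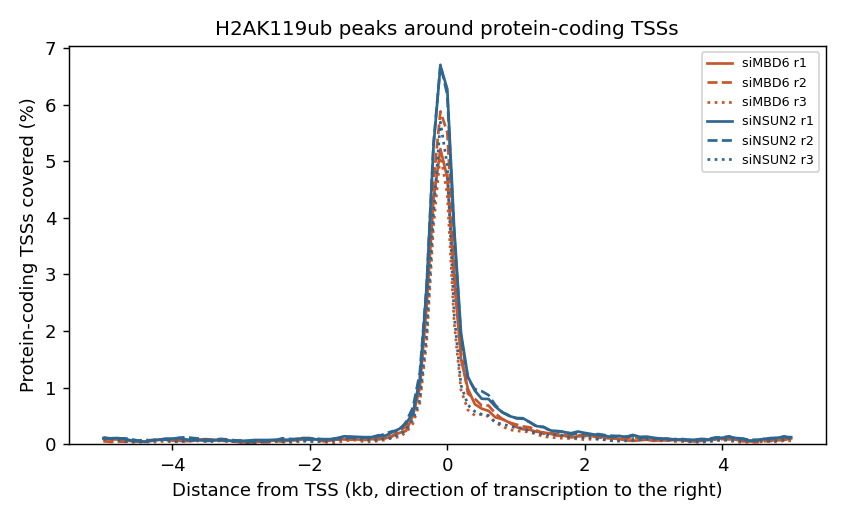
Share of the 20033 protein-coding TSSs that lie in a peak (vertical axis, percent) by distance from the TSS in kb (horizontal axis), 1 line per library, siMBD6 in orange and siNSUN2 in blue. All 6 lines peak 100 bases upstream of the TSS, at 5.14 to 5.88% in siMBD6 and 5.69 to 6.70% in siNSUN2 libraries.

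Pairs of libraries from different knockdowns and pairs of replicates overlapped to similar degrees. The Jaccard index, the bases covered in both libraries of a pair over the bases covered in either, ranged from 0.301 to 0.346 (median 0.329) over the 9 pairs of a siMBD6 with a siNSUN2 library, and from 0.313 to 0.351 (median 0.324) over the 6 pairs within a group. Within siMBD6 the 3 pairs lay between 0.315 and 0.336, and within siNSUN2 between 0.313 and 0.351. The ranges of the between-group and the within-group pairs overlapped. Of the peaks of a library, a median of 55.6% were overlapped in a library of the other knockdown and a median of 58.1% in a library of the same knockdown. Between knockdowns, siMBD6 peaks were overlapped at 54.9 to 67.5% in siNSUN2 libraries and siNSUN2 peaks at 44.7 to 58.1% in siMBD6 libraries.

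**Figure D3:**
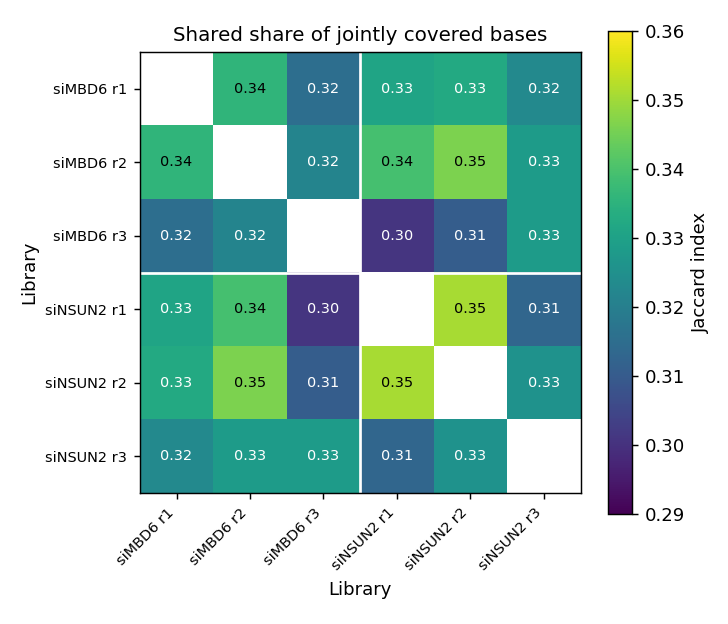
Jaccard index of covered bases for each pair of the 6 libraries (colour and printed value, rows and columns are libraries, white lines divide siMBD6 from siNSUN2, the diagonal is left blank). Between-group values of 0.301 to 0.346 overlap with the within-group values of 0.313 to 0.351.

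Overlap between libraries was highest for the peaks with the highest fold enrichment. When the peaks of each library were split into 4 equal parts by fold enrichment over background, the top part was overlapped in the other knockdown's libraries at a median of 75.3% (range over the 6 libraries 70.3 to 83.5%) and in the same knockdown's libraries at a median of 74.8% (range 70.8 to 81.1%). The lowest part was overlapped at a median of 48.0% in the other knockdown and 44.9% in the same knockdown. Peaks of low fold enrichment were missing from replicates as well as from the other knockdown, and the difference between these shares was not tested.

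Just over 1 in 2 retained regions were shared by the knockdowns. A region was retained in a group when at least 2 of its 3 libraries listed it, which follows the study's own criterion. Of 8993 merged regions, 2804 were retained in siMBD6 and 3479 in siNSUN2. Of the 4108 retained in either, 2175 were retained in both (52.9%, 95% exact binomial interval 51.4 to 54.5%, covering counting error only), 629 in siMBD6 alone and 1304 in siNSUN2 alone. The shared regions were 77.6% of the siMBD6 set and 62.5% of the siNSUN2 set. With equal numbers of peaks per library the joint share was 53.6% and the exclusive sets were of similar size, 747 in siMBD6 and 778 in siNSUN2. Retention in 1 group alone often went with a listing in the other: 421 of the 629 siMBD6-only regions (66.9%) were listed in 1 siNSUN2 library, and 756 of the 1304 siNSUN2-only regions (58.0%) in 1 siMBD6 library. Only 21 regions were listed in all 3 siMBD6 and no siNSUN2 library, and 90 in all 3 siNSUN2 and no siMBD6 library, while 1113 were listed in all 6.

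Shared regions were longer than exclusive ones and had a higher highest fold enrichment, in measures that depend on how many libraries list a region. The median region was 491 bases long if shared, 406 if siMBD6-only and 405 if siNSUN2-only, and its highest fold enrichment was 5.97, 5.36 and 5.23 in these classes. Of shared regions 43.2% lay within 1 kb of a protein-coding TSS, against 37.4% of siMBD6-only and 37.2% of siNSUN2-only regions. Median CpG density was 6.48 per 100 bases in shared, 5.12 in siMBD6-only and 4.99 in siNSUN2-only regions. These classes were defined by the peaks themselves, so their values are a description without a test. A region's length is the union of its peaks, and its highest fold is taken over all libraries that list it. Both can only rise with the number of such libraries, which by definition tends to be larger for shared regions.

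Genes gave a similar split. For each of 20033 protein-coding genes, covered kb was summed over a 10-kb window centred on the outermost annotated TSS. Other start sites of a gene can lie outside its window. Of these windows, 4477 held a peak in at least 1 of the 6 libraries. Of 2383 windows retained in either group, 1352 were retained in both (56.7%, exact interval 54.7 to 58.7%), 319 in siMBD6 alone and 712 in siNSUN2 alone. The shared windows were 80.9% of the siMBD6 set and 65.5% of the siNSUN2 set. A peak was listed in all 6 libraries for 671 windows, in all 3 siMBD6 and no siNSUN2 library for 7, and in all 3 siNSUN2 and no siMBD6 library for 48.

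No window and no region passed the test for a difference between the knockdowns. Covered kb was tested with limma in the 2060 windows listed in at least 3 of the 6 libraries (0 called, 0.0%) and in the 3463 regions listed as often (0 called, 0.0%), with 0.05 as the threshold on the p adjusted by Benjamini and Hochberg's method. The lowest adjusted p was 0.171 for windows and 0.145 for regions. At an unadjusted p under 0.05, 17 windows were higher and 89 lower in siMBD6, and 39 regions were higher and 159 lower. For windows these counts became 31 higher and 21 lower without siNSUN2 replicate 1, 29 higher and 11 lower without siNSUN2 replicate 2, and 55 higher and 56 lower with covered kb scaled to the same total per library. The median difference, siMBD6 minus siNSUN2, was -0.0242 kb over the windows tested. On the scale log2(covered kb + 0.1), limma called 54 windows, 7 higher and 47 lower in siMBD6, and 110 regions, 21 higher and 89 lower. These counts lie close to those of windows listed in 3 libraries of 1 knockdown and 0 of the other (7 and 48). For such regions the counts were 21 and 90. Features of this kind pass the filter only through the group that lists them and have no spread in the other. Their statistics therefore give no separate support, here or at the genes named below.

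Every siMBD6 library lay above every siNSUN2 library in 39 windows (1.89% of those tested) and below in 132 (6.41%). For regions the counts were 70 (2.02%) and 207 (5.98%). The windows listed in 3 libraries of a knockdown and none of the other were 0.34% (siMBD6) and 2.33% (siNSUN2) of those tested, and the regions 0.606% and 2.6%. With the same number of peaks per library the direction was kept, with 47 windows higher and 96 lower in siMBD6 and 89 regions higher and 136 lower. These were among 1700 windows and 2807 regions tested. With covered kb scaled to the same total per library, 213 windows were higher and 52 lower in siMBD6, and 354 regions were higher and 110 lower. By construction this scaling raises libraries of short covered length relative to long ones, and siMBD6 libraries were shorter on average. With the same number of peaks per library, 12 windows were listed in siMBD6 alone (3 libraries against 0) and 25 in siNSUN2 alone. Without replicate 3 of both groups, 80 of 2393 windows tested were listed in both siMBD6 and no siNSUN2 library and 227 in the opposite pattern. That pattern of 2 libraries against 0 is looser than 3 against 0, so these counts are not comparable with the 7 and 48 above.

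**Figure D4:**
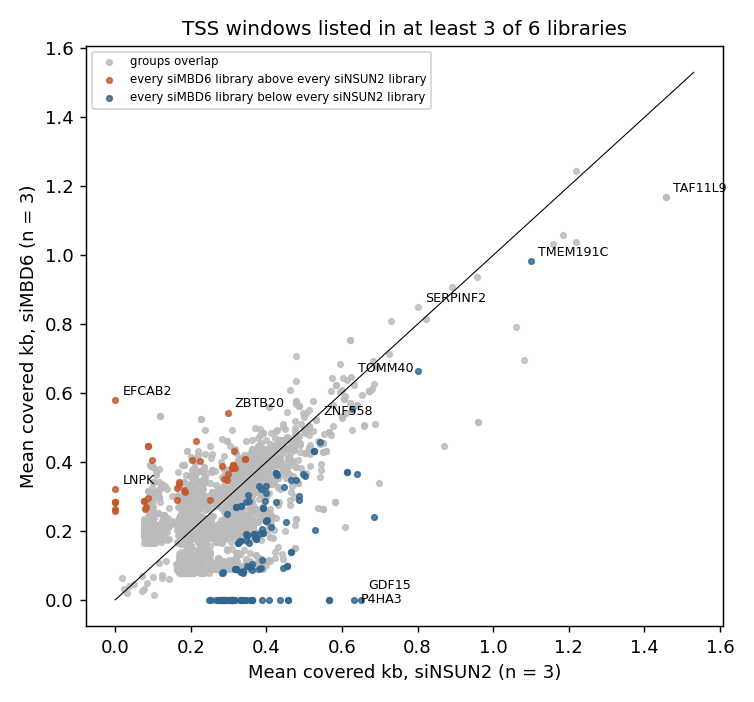
Mean covered kb in the 2060 TSS windows tested, siMBD6 (vertical axis) against siNSUN2 (horizontal axis), n = 3 each, with the line of equality. The 39 windows in which every siMBD6 library lies above every siNSUN2 library are orange, the 132 of the opposite kind are blue, and windows with means of 0 lie on the axes.

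Among windows listed in all 3 siNSUN2 and no siMBD6 library, the largest statistic was that of GDF15, a stress-induced cytokine of the TGF-beta superfamily. GDF15 (ENSG00000130513.7, chromosome 19, TSS at 18374731) had 0, 0 and 0 kb in siMBD6 libraries and 0.558, 0.799 and 0.595 kb in siNSUN2 libraries. All 3 siNSUN2 libraries were thus above every siMBD6 library, and a difference of -0.651 kb (SE 0.083) had the largest statistic of all windows without passing the test (limma, adjusted p = 0.171). The covered region, bases 18373859 to 18374719, is intergenic and ends 12 bases before the start site. It was also listed in 1 of 3 control-siRNA libraries of TET2 KO cells, at 0.314 kb, and in 1 of 3 of WT cells, at 0.653 kb, so it was not particular to NSUN2 knockdown.

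SS18 and CHD4 had the next largest statistics in this direction. SS18, a subunit of the BAF chromatin remodelling complex, had 0 kb in all 3 siMBD6 libraries and 0.375, 0.389 and 0.4 kb in siNSUN2 libraries. Its region on chromosome 18 (26090615 to 26091160) lies within the gene, with 444 of 546 bases in annotated untranslated sequence. CHD4, the ATPase of the NuRD complex, had 0 kb in all 3 siMBD6 libraries and 0.398, 0.361 and 0.33 kb in siNSUN2 libraries, in a region of chromosome 12 (6613763 to 6614332) that is intronic over 488 of its 570 bases. In control-siRNA libraries, SS18 was listed at 0.292 kb in 1 of TET2 KO cells and at 0.468 and 0.536 kb in 2 of WT cells, and CHD4 at 0.342 kb in 1 of WT cells. Both genes missed the threshold (limma, adjusted p = 0.171 for each).

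PPM1B, a protein phosphatase, had 0 kb in all 3 siMBD6 libraries and 0.268, 0.666 and 0.762 kb in siNSUN2 libraries. CLSPN, the replication checkpoint adaptor claspin, was likewise at 0 kb in siMBD6 and had 0.329, 0.691 and 0.291 kb in siNSUN2 libraries. P4HA3, a subunit of collagen prolyl 4-hydroxylase, was at 0 kb in siMBD6 and had 1.09, 0.379 and 0.422 kb in siNSUN2 libraries. PPM1B was also listed in control-siRNA libraries, at 0.59 kb in 1 of TET2 KO cells and at 0.776 and 0.719 kb in 2 of WT cells, and P4HA3 at 0.434 kb in 1 of TET2 KO cells, while CLSPN was at 0 kb in all 6. The siNSUN2 libraries spread widely in these 3 genes, and the adjusted p was 0.171, 0.265 and 0.412 (limma). COMTD1, FGFR4, CHMP4B, VPS4B, LRRC47 and SLC35B4 followed the same pattern, with 0.228 to 0.729 kb in siNSUN2 libraries and 0 kb in siMBD6 libraries. FGFR4 is a fibroblast growth factor receptor, and CHMP4B and VPS4B act in the ESCRT-III membrane scission machinery. In control-siRNA libraries FGFR4 was listed at 0.287 and 0.284 kb in 2 of TET2 KO cells and 0.292 kb in 1 of WT cells, CHMP4B at 0.281 kb in 1 of WT cells, and SLC35B4 at 0.3 kb in 1 of TET2 KO and 0.281 kb in 1 of WT cells. COMTD1, VPS4B and LRRC47 were at 0 kb in all 6 control-siRNA libraries. SIGLEC11, a sialic acid receptor, also did so with 0.447, 0.684 and 0.237 kb in siNSUN2 libraries, but 91.7% of its region is sequence found more than once in the genome, and it was listed at 0.397 kb in 1 control-siRNA library of TET2 KO and 0.346 kb in 1 of WT cells.

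Windows listed in all 3 siMBD6 and no siNSUN2 library were fewer, 7 against 48. EFCAB2, which encodes an EF-hand protein, had 0.269, 0.761 and 0.706 kb in siMBD6 libraries and 0, 0 and 0 kb in siNSUN2 libraries, a difference of 0.579 kb (SE 0.133; limma, adjusted p = 0.171). Its region on chromosome 1 (244970222 to 244970982) spans 761 bases, all in exons of EFCAB2 or of the overlapping gene ENSG00000272195, with 25 coding and 92 untranslated bases. It was listed in 1 control-siRNA library of TET2 KO cells, at 0.282 kb. LNPK, the endoplasmic reticulum junction protein lunapark, had 0.269, 0.379 and 0.317 kb in siMBD6 libraries and 0 kb in all 3 siNSUN2 libraries. Its region on chromosome 2 (176002102 to 176002480) covers 135 bases of untranslated exon and 244 bases of intron. LNPK was at 0 kb in all 6 control-siRNA libraries.

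FOXO6, a forkhead transcription factor, had 0.285, 0.289 and 0.274 kb in siMBD6 libraries and 0 kb in all 3 siNSUN2 libraries. MRPL50 and MRPS9, subunits of the mitochondrial ribosome, had 0.286, 0.335 and 0.23 kb and 0.269, 0.266 and 0.258 kb in siMBD6 libraries and 0 kb in siNSUN2 libraries. The MRPL50 region on chromosome 9 (101398574 to 101398988) also overlaps the divergent neighbour ZNF189. STK40, a serine/threonine kinase-like gene, had 0.28, 0.267 and 0.23 kb in siMBD6 libraries and 0 kb in siNSUN2 libraries. Most of these values are single peaks near the shortest width a list holds, which was 269, 266 and 230 bases in siMBD6 libraries. In control-siRNA libraries MRPL50 was listed at 0.282 kb in 1 of TET2 KO cells, FOXO6 at 0.292 kb and MRPS9 at 0.278 kb each in 1 of WT cells, and STK40 in none. All 4 genes missed the threshold (limma, adjusted p between 0.171 and 0.183).

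ZBTB20 and SYS1 were higher in siMBD6 without being at 0 in every siNSUN2 library. ZBTB20, a BTB zinc finger repressor, had 0.503, 0.61 and 0.516 kb in siMBD6 libraries and 0.337, 0.308 and 0.247 kb in siNSUN2 libraries. The groups did not overlap and the difference was 0.246 kb (SE 0.0683; limma, adjusted p = 0.336). ZBTB20 was at 0.4 kb in 1 control-siRNA library of TET2 KO cells and at 0 kb in the other 5. SYS1, a Golgi trafficking protein, had 0.481, 0.361 and 0.501 kb in siMBD6 libraries and 0, 0.257 and 0 kb in siNSUN2 libraries (limma, adjusted p = 0.265).

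**Figure D5:**
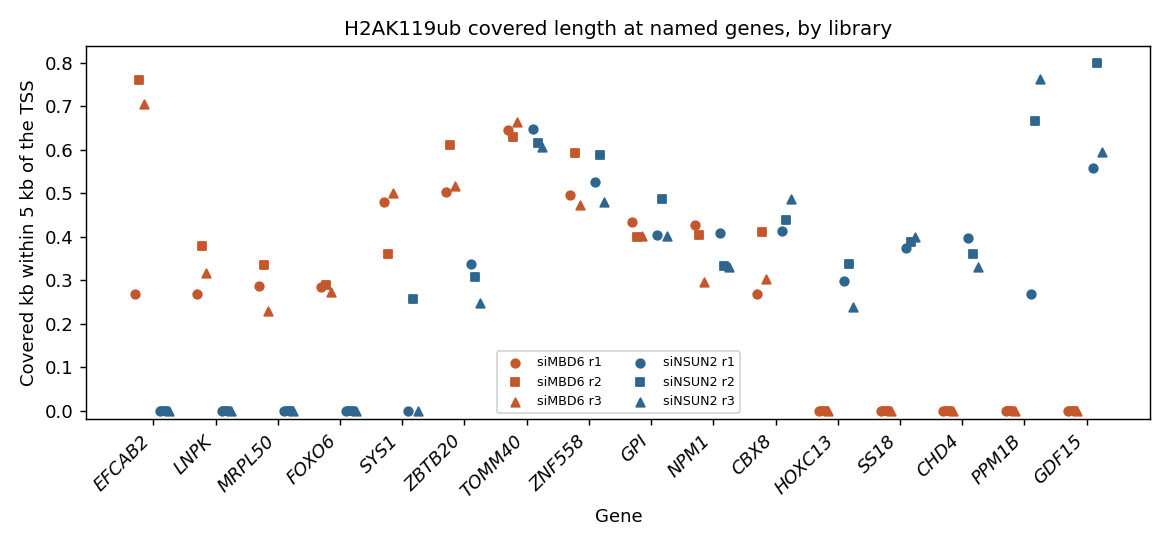
Covered kb within 5 kb of the TSS (vertical axis) for 16 genes (horizontal axis), 1 point per library, siMBD6 in orange at left and siNSUN2 in blue at right of each gene, with the marker shape giving the replicate. EFCAB2 to FOXO6 are at 0 kb in all siNSUN2 libraries, TOMM40 to NPM1 are alike in the 6 libraries, and HOXC13 to GDF15 are at 0 kb in all siMBD6 libraries.

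Regions away from start sites showed the same kind of difference, again below the threshold (limma, adjusted p = 0.145 for each named here). A region on chromosome 3 (46987349 to 46988116), inside NBEAL2, a gene needed for platelet alpha granules, had 0.601, 0.323 and 0.44 kb in siMBD6 libraries and 0 kb in all 3 siNSUN2 libraries. Intronic regions of ELMO1 on chromosome 7 (37076723 to 37077185) and of VGLL4 on chromosome 3 (11656362 to 11656948) and an intergenic region on chromosome 15 (26082009 to 26082672) were also listed in all 3 siMBD6 and no siNSUN2 library, at 0.266 to 0.472 kb. The VGLL4 region was listed in control-siRNA libraries too, at 0.359 kb in 1 of TET2 KO cells and 0.495 and 0.287 kb in 2 of WT cells, and the NBEAL2, ELMO1 and chromosome 15 regions in none of the 6. In the opposite direction a region of chromosome 19 inside NFILZ (8655513 to 8656076) had 0 kb in siMBD6 libraries and 0.437, 0.559 and 0.433 kb in siNSUN2 libraries. An intergenic region of chromosome 10 (44310929 to 44311442), 75051 bases from the TSS of the chemokine gene CXCL12, had 0 kb in siMBD6 libraries and 0.446, 0.379 and 0.415 kb in siNSUN2 libraries. Each was listed in 1 control-siRNA library, the NFILZ region at 0.391 kb in WT and the chromosome 10 region at 0.391 kb in TET2 KO cells.

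The windows with the highest lowest value over the 6 libraries are shared by the way they were chosen, and their levels are a description. TOMM40, the channel of the mitochondrial outer membrane translocase, had 0.645, 0.629 and 0.664 kb in siMBD6 libraries and 0.649, 0.616 and 0.607 kb in siNSUN2 libraries, a difference of 0.022 kb (SE 0.0612; limma, adjusted p = 0.988). The imprinted gene SGCE, whose window holds a region inside the neighbouring imprinted gene PEG10, had 0.644, 0.663 and 0.716 kb in siMBD6 libraries and 0.723, 0.678 and 0.673 kb in siNSUN2 libraries. EEF2KMT, a lysine methyltransferase of elongation factor EEF2, had 0.656, 0.696 and 0.639 kb in siMBD6 libraries and 0.754, 0.845 and 0.803 kb in siNSUN2 libraries. Its groups did not overlap, and the difference of -0.137 kb did not pass the test (limma, adjusted p = 0.929).

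Multi-copy sequence, in which the placement of reads can be uncertain, made up 1.96% of the covered regions of TOMM40, 19.8% of those of SGCE and 56.6% of those of EEF2KMT. It made up more in the other 7 windows of this kind. Multi-copy here means that a 31-base word starting at that position occurs more than once in the genome. TAF11L9 had 1.35, 1.23 and 0.922 kb in siMBD6 libraries and 1.24, 1.96 and 1.18 kb in siNSUN2 libraries, and 98.5% of its covered regions was multi-copy. TAF11L3, TMEM191B, TMEM191C, FAM86B1, SERPINF2 and TNFRSF18 had 0.627 to 1.60 kb in the 6 libraries with multi-copy shares of 73.5 to 94.2%. The TNFRSF18 peaks are centred 4232 bases from the TSS and none is left in a window of 2.5 kb to either side. The longest regions listed in all 6 libraries included 4 on chromosome 8 with multi-copy shares of 96.4 to 100%, the first of which (85734917 to 85737642) had 1.93, 1.53 and 1.74 kb in siMBD6 libraries and 1.02, 2.11 and 0.772 kb in siNSUN2 libraries. A single-copy one lay on chromosome 22 (19687404 to 19689658), intergenic and 24845 bases from the TSS of SEPTIN5, with 0.728, 0.634 and 0.521 kb in siMBD6 libraries and 0.791, 1.27 and 0.663 kb in siNSUN2 libraries.

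Multi-copy sequence took a larger share of the siMBD6 lists. It made up 19.2, 17.7 and 17.8% of covered bases in siMBD6 libraries and 17.6, 16.2 and 16.6% in siNSUN2 libraries, without overlap between the groups (exact permutation p = 0.1, the smallest the design allows). In kb the order was the opposite, with 225 ± 42.6 kb multi-copy in siMBD6 and 256 ± 59.5 kb in siNSUN2 libraries (SD, n = 3 each), while other sequence averaged 1009 kb and 1263 kb. The share was added to the measures after the data were seen.

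Classical Polycomb targets were nearly free of listed peaks after either knockdown. A peak in at least 1 of the 6 libraries was listed for 2 of 39 HOX genes, 8 of 98 developmental transcription factors and 0 of 53 clustered protocadherins, against 22.3% of all windows. Genes of these kinds are textbook PRC1 targets, and the absence of a listed peak says only that none was called. HOXC13, a HOX gene of posterior body parts and hair, had 0 kb in all 3 siMBD6 libraries and 0.298, 0.338 and 0.238 kb in siNSUN2 libraries (limma, adjusted p = 0.171). It was also listed in 2 of 3 control-siRNA libraries of TET2 KO cells, at 0.37 and 0.308 kb. HOXC4 had 0.31, 0.29 and 0.469 kb in siMBD6 libraries and 0.355, 0.273 and 0 kb in siNSUN2 libraries. Among the developmental factors, POU3F2 was listed in all 6 libraries, at 0.391, 0.269 and 0.335 kb in siMBD6 and 0.565, 0.343 and 0.268 kb in siNSUN2 libraries. TBX3, a T-box repressor, had 0.285, 0 and 0.336 kb in siMBD6 libraries and 0.355, 0.442 and 0.37 kb in siNSUN2 libraries.

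Genes of the machinery that places and removes the mark, and of the m5C pathway, held a peak in at least 1 library at shares of 25.0% (Polycomb subunits), 28.6% (PR-DUB and partners) and 33.3% (RNA m5C and TET), against 22.3% of all windows. TET2, MBD6, NSUN2 and BAP1 had 0 kb in all 6 libraries, and the windows of TET2, MBD6 and NSUN2 therefore give no check of the KO or of either knockdown. ASXL1 had 0.23 kb in siMBD6 replicate 3 and 0 kb elsewhere. Of 14 genes of the PR-DUB and its partners, 1 was retained in both groups, 0 in siMBD6 alone and 1 in siNSUN2 alone. Over all windows these counts were 1352, 319 and 712. KDM1B, a histone demethylase linked to PR-DUB, was listed in enough libraries to test, at 0, 0.412 and 0.375 kb in siMBD6 and 0.261, 0.374 and 0.24 kb in siNSUN2 libraries.

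Of 36 Polycomb subunit genes, 5 were retained in both groups, none in siMBD6 alone and 2 in siNSUN2 alone. All windows together gave 1352, 319 and 712. CBX8, a chromobox subunit of canonical PRC1, had 0.269, 0.41 and 0.303 kb in siMBD6 libraries and 0.413, 0.439 and 0.486 kb in siNSUN2 libraries, without overlap and without passing the test (limma, adjusted p = 0.929). The CBX8 peaks lie within the gene, centred 4473 bases downstream of the TSS, and none is left in a window of 2.5 kb to either side. PCGF3, a subunit of a variant PRC1, had 0.5, 0.444 and 0.292 kb in siMBD6 libraries and 0.426, 0.371 and 0.367 kb in siNSUN2 libraries. PHC2, a polyhomeotic subunit, had 0.325, 0.441 and 0.369 kb in siMBD6 libraries and 0.338, 0.339 and 0.339 kb in siNSUN2 libraries. Among 18 RNA m5C and TET pathway genes, TET3 and YTHDF2 were retained in siNSUN2 alone and none in siMBD6 alone or in both. TET3 had 0.297, 0 and 0 kb in siMBD6 libraries and 0, 0.534 and 0.228 kb in siNSUN2 libraries. Its siNSUN2 listings were separate peaks, centred at 2730 bases from the TSS in replicate 2 and at -3288 bases in replicate 3. The former region was also listed in siMBD6 replicate 1. YTHDF2 had 0, 0.334 and 0 kb in siMBD6 libraries and 0.419, 0.257 and 0 kb in siNSUN2 libraries.

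A peak was listed in at least 1 library for 35.3% of signalling and 27.6% of leukaemia genes, against 22.3% of all windows. Of 34 signalling genes (NF-kB, cytokine and NOD-like receptor pathways), 7 were retained in both groups, 0 in siMBD6 alone and 2 in siNSUN2 alone. Over all windows these counts were 1352, 319 and 712, so siNSUN2-only windows were the more frequent kind there too. The median difference over the 9 tested was -0.0323 kb, against -0.0242 kb over all windows tested. STAT3, a cytokine-activated transcription factor, had 0.364, 0.288 and 0.302 kb in siMBD6 libraries and 0.466, 0.402 and 0.316 kb in siNSUN2 libraries. JUN, an AP-1 subunit, had 0.283, 0.387 and 0.231 kb in siMBD6 libraries and 0.485, 0.332 and 0.269 kb in siNSUN2 libraries. NFKBIB, an inhibitor of NF-kB, was also listed in all 6 libraries, at 0.281 to 0.379 kb in siMBD6 and 0.309 to 0.449 kb in siNSUN2. NFKBIA had 0 kb in all 6 libraries, and SOCS3, an inhibitor of cytokine signalling, had 0.266 kb in siMBD6 replicate 2 and 0 kb elsewhere.

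NPM1, a nucleolar protein often mutated in leukaemia, had 0.428, 0.404 and 0.296 kb in siMBD6 libraries and 0.409, 0.333 and 0.331 kb in siNSUN2 libraries, a difference of 0.0183 kb (SE 0.0703; limma, adjusted p = 0.988). NUP98, a nucleoporin and fusion partner in leukaemia, was listed in all 6 libraries, at 0.263 to 0.31 kb in siMBD6 and 0.268 to 0.406 kb in siNSUN2. Of 29 leukaemia genes, 4 were retained in both groups, 0 in siMBD6 alone and 1 in siNSUN2 alone. The counts over all windows were 1352, 319 and 712. MYC, RUNX1, GATA2 and HOXA9 had 0 kb in all 6 libraries, in windows at their outermost annotated TSS that can miss other start sites.

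Erythroid and megakaryocyte genes, which mark the lineage of K-562, held a peak in at least 1 library for 15 of 34 genes (44.1%), against 22.3% of all windows. KLF1, an erythroid transcription factor, had 0, 0.39 and 0.258 kb in siMBD6 libraries and 0.448, 0.377 and 0.399 kb in siNSUN2 libraries. HBZ, embryonic zeta globin, had 0.346, 0.381 and 0 kb in siMBD6 libraries and 0.468, 0.336 and 0.405 kb in siNSUN2 libraries. The KLF1 peaks lie in the neighbouring gene GCDH, centred at -3819 bases from the KLF1 TSS, and the HBZ peaks in NPRL3, centred at -4117 bases from the HBZ TSS (negative is upstream), so that both levels were 0 kb in a window of 2.5 kb to either side. All 5 erythroid windows tested had lower means in siMBD6, as had 1245 of all 2060 windows tested. Their median difference was -0.156 kb, and none passed the test. GATA1 had 0 kb in all 6 libraries. Of 18 lymphoid windows 3 were listed (16.7%), with 1 retained in both groups, 0 in siMBD6 alone and 1 in siNSUN2 alone. None of 19 myeloid windows was listed, and CD3E, MS4A1, CD14, MPO and CSF1R had 0 kb throughout. Of 24 regulators of blood stem and progenitor cells 2 were listed (8.33%), with 0 retained in both groups, 0 in siMBD6 alone and 1 in siNSUN2 alone. For comparison, all windows gave 1352 in both groups, 319 in siMBD6 alone and 712 in siNSUN2 alone. The peak lists hold no expression, so the labelled cell type could not be checked on them.

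Of the other lists, a peak was listed in at least 1 library for 34.3% of cell cycle, 23.3% of housekeeping, 21.9% of ZNF and 14.3% of ribosomal protein genes. The share over all windows was 22.3%, and 1352 of all windows were retained in both groups, 319 in siMBD6 alone and 712 in siNSUN2 alone. Of 508 ZNF zinc finger genes, 28 were retained in both groups, 11 in siMBD6 alone and 18 in siNSUN2 alone, with a median difference of -0.0013 kb over the 43 tested. ZNF558 had 0.497, 0.592 and 0.473 kb in siMBD6 libraries and 0.526, 0.589 and 0.481 kb in siNSUN2 libraries, and ZNF277 was at a similar level in both. Of 35 cell cycle genes, 2 were retained in both groups, 1 in siMBD6 alone and 1 in siNSUN2 alone. CCNB1, cyclin B1, had 0.269, 0.266 and 0.244 kb in siMBD6 libraries and 0.302, 0 and 0 kb in siNSUN2 libraries (limma, adjusted p = 0.929). Of 69 replication-dependent histone genes, 4 were listed, each retained in siNSUN2 alone. H2AC25 and H2BC26, divergent neighbours, share a region and had the same values in every library. Both had 0.389, 0 and 0 kb in siMBD6 libraries and 0.34, 0.504 and 0.277 kb in siNSUN2 libraries. H2BC11, whose region also overlaps H2AC11, had 0.468, 0 and 0 kb in siMBD6 libraries and 0.354, 0 and 0.228 kb in siNSUN2 libraries. Both regions were thus listed in siMBD6 replicate 1 too, and the 4 genes are not separate regions. Olfactory receptor genes, silent outside the nose, were listed for 5 of 400.

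Of 30 housekeeping genes, 1 was retained in both groups, 0 in siMBD6 alone and 2 in siNSUN2 alone, against 1352, 319 and 712 of all windows. The housekeeping gene retained in both was GPI, a glycolytic enzyme, with 0.434, 0.399 and 0.401 kb in siMBD6 libraries and 0.404, 0.488 and 0.402 kb in siNSUN2 libraries. ACTB had 0, 0.266 and 0 kb in siMBD6 libraries and 0.584, 0.46 and 0 kb in siNSUN2 libraries, and GAPDH had 0 kb in all 6. The ACTB region on chromosome 7 (5562903 to 5563715) lies near the outermost annotated TSS and is intronic over 811 of its 813 bases. Other ACTB start sites can lie outside this window. Of 46 WNT, BMP and TGF-beta ligands and receptors 2 were retained in both groups, 0 in siMBD6 alone and 2 in siNSUN2 alone, and of 84 ribosomal protein genes 1, 1 and 2. No list had a called member in either direction, and the median over all windows tested was itself below 0.

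Covered sequence was spread unevenly over the chromosomes in both groups. Chromosome 19, 1.90% of the genome's length, held 9.18% of covered bases in siMBD6 and 9.61% in siNSUN2 libraries, and chromosome 22, 1.65% of the length, held 5.93% in siMBD6 and 5.75% in siNSUN2. Chromosome X held 1.35% in both, for 5.05% of the length. The groups did not overlap for 5 of 24 chromosomes. Chromosome 4 held 3.27% in siMBD6 and 2.84% in siNSUN2 libraries, chromosome 5 4.36% in siMBD6 and 4.06% in siNSUN2, chromosome 13 1.15% in siMBD6 and 0.974% in siNSUN2, chromosome 2 4.69% in siMBD6 and 4.99% in siNSUN2, and chromosome 17 4.50% in siMBD6 and 4.96% in siNSUN2. Each had the smallest p that the exact permutation test allows (p = 0.1, adjusted p = 0.48 over 24 chromosomes), so no chromosome could have passed.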

How the data were processed

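CUT&Tag libraries of H2AK119ub from TET2 KO K-562 cells were analysed, 3 siMBD6 and 3 siNSUN2, named by their labels; the 6 control-siRNA K-562 libraries entered only where stated and the other libraries were not used. Per the labels and methods, the authors trimmed reads with Trimmomatic 0.39, mapped them with Bowtie2 2.4.1 to hg38 together with the Drosophila genome, removed duplicates with Picard and ran MACS2 in broad mode on every library separately. The deposited lists give each peak's position, its fold enrichment (a ratio over local background), its −log10 p and −log10 q, and a score made from the latter. The authors' spike-in normalization is not part of these lists, and sequencing depth is unknown. The study describes 3 biological replicates; the labels name no separate cultures, so p-values measure the spread between these libraries, which may be technical. Only peaks placed on the autosomes, X or Y entered, and covered kb was computed in GENCODE v44 windows and merged regions with Python 3.11.15, NumPy 2.4.6 and pandas 2.3.3. Regions and windows listed in at least 3 of 6 libraries were compared by limma 3.58.1 under R 4.3.3 (two-sided moderated test, Benjamini-Hochberg), and library values with exact permutation tests. Interval functions were checked against bedtools 2.31.1, permutation tests against SciPy 1.17.1, and limma was tested on simulated data. Multi-copy 31-mers were counted in hg38 with numba 0.67.0; figures used matplotlib 3.10.9.

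Genes named are up to 8 windows per direction with the largest limma statistic (none was called), up to 6 per direction listed in 3 libraries of 1 group and 0 of the other, the 10 with the highest lowest value, up to 3 members of each of 19 gene lists and a fixed set, at least 20 kb apart in the first 3 cases. Members and lists were chosen with earlier results of these data known. Alternatives were a −log10 q of at least 5, equal peak numbers, scaled lengths, a log2 scale, other filters, windows and merging, a replicate block, all 4 K562 groups in 1 fit and each library left out. Some genes that the rule names are not reported here.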

Additional observations from a re-analysis of the deposited data

How the results depend on the processing

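limma called 0 windows and 0 regions with covered length scaled, without a filter, with at least 5 of 6 libraries, with equal peak numbers and with each library left out (0 to 0). It called 54 windows and 110 regions on the log2 scale, 21 windows at a −log10 q of at least 5, and 45 regions with all 4 K562 groups in the fit. The cause was not tested. On the log2 scale the counts lie close to those of features listed in 3 libraries of 1 knockdown and 0 of the other. With the replicate number as a block, 0 windows (lowest adjusted p 0.387) and 0 regions (0.365) were called, the covered length ratio was -0.29 and the promoter difference 1.39 points. In their deviations from the group mean, same-numbered libraries correlated at 0.00345 to 0.0787, highest for replicate 3 in both windows and regions. In windows, replicate 3 correlated at -0.0653 to -0.0132 with libraries of another number in the other group. The labels do not say whether the numbers pair the libraries. The log2 ratio of covered length was -0.47 to -0.16 with a library left out. With equal peak numbers, where only peak widths can differ, it was 0.0049. The promoter difference was 0.388 to 2.07 points with a library left out. The share of regions retained in both groups was 51.3% with all 3 libraries required, 46.8% with 1 and 48.2% counted per base; that of windows was 49.0% at a −log10 q of at least 5 and 51.4% with all 3 libraries required. Without replicate 3 of both groups, chosen after seeing the data, the shares were 48.4% of regions and 50.3% of windows; restricting to regions with under 10% multi-copy sequence, also added then, gave 0 calls. Of 228 alternative values for 21 named differences, 210 kept their side of the threshold, 18 passed it, all on the log2 scale, and 0 reversed. Of 729 alternative values for 81 levels, 29 moved by more than the spread between replicates, all at a −log10 q of at least 5 or in the 2.5-kb window. Depth is unknown, so a stretch without a peak cannot be told apart from one too shallow to call.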
